A study of Mus musculus with 4 samples.

Results

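The miR-379 to miR-410 cluster is the distal miRNA cluster of the imprinted Dlk1-Dio3 region. Its members were all miRNA names on the array, either arm of a hairpin, whose probe target lies within a fixed window around this cluster on mouse chromosome 12 (build mm9). This gave 50 of the 577 miRNA names on the array, from 35 hairpins, with targets from 110947280 to 110981994, a span of 34715 bases. In the Dlk1-Dio3 region the maternal chromosome carries the transcribed non-coding genes, and the miRNAs of this cluster are cut from long maternal transcripts, so that many hairpins derive from shared precursors. The cluster is best known from brain, where several members act in neurons, and in pluripotent cells its activity is known to depend on whether the maternal allele has been silenced. LIN28A is an RNA-binding protein that blocks the maturation of let-7 precursors by binding their terminal loop.

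MicroRNAs were measured in A3-1 cells, a mouse embryonic stem cell line grown in serum and LIF, a cytokine that keeps the cells undifferentiated. The siGFP group (2 replicates) received an siRNA against GFP as the control, the siLin28a group (2 replicates) an siRNA against Lin28a, and total RNA was taken after 48 h. No other genotype or treatment is given for either group. Each replicate was hybridised to 1 single-colour Agilent miRNA array, with 4 arrays in all. A miRNA array holds no probe for Lin28a mRNA, so the extent of the knockdown is not measured here, and no label says whether the replicates were separate cultures. A p-value here is therefore set against array-to-array spread that may be technical.

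Between 32.5% and 38.8% of the 11540 spots of an array that were not controls were well above background, and no spot was saturated. Precision is limited by having 2 arrays a group. Of the embryonic stem cell markers (the miR-290 to miR-295 family), 13 or 14 of 14 were detected on each array, with a summed total signal of 60475 to 69633 units. The primed pluripotent (miR-302 and miR-367) and muscle markers summed to at most 35.9 units on any array, and the endoderm or liver markers to at most 32.1. The neural markers summed to 200.0 and 249 units with siGFP and 233 and 327 with siLin28a. On each array 3 of these 7 were detected (miR-124, miR-128 and miR-219), and miR-124*, miR-9, miR-9* and miR-137 were not detected on any. The fibroblast or feeder markers summed to 373 and 309 against 412 and 380 units, and the blood markers to 139 and 121 against 177 and 140. None of these sums, which are not scaled between arrays, was lower on both siLin28a arrays. The sum over all miRNAs was itself higher on both siLin28a arrays. On the scaled log2 values the 13 tested embryonic stem cell markers had a median difference, siLin28a minus siGFP, of -0.065. Of these, 5 were lower and 1 higher without overlap between the groups, against 30.7% lower and 30.7% higher of all tested miRNAs. The markers' part in the results on the cluster was not tested.

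Of the 50 members, 47 were matched by hairpin name and by place in the hairpin to a mature sequence in RefSeq (build GRCm38.p6). The sequences below are those of members whose values are described here, written 5′ to 3′ with the seed, bases 2 to 8, in capitals. The seed is the stretch that chiefly selects a miRNA's targets. Array names with an asterisk denote the arm once taken for the minor one.
miR-154: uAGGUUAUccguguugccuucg
miR-154*: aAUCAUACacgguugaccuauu
miR-409-5p: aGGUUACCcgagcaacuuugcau
miR-409-3p: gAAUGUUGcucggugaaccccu
miR-411: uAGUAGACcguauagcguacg
miR-411*: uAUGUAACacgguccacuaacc
miR-543: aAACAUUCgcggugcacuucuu
miR-495: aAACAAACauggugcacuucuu
miR-376b: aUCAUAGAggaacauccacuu
miR-376a: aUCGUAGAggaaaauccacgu
miR-300: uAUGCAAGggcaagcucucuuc
miR-381: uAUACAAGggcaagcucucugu
miR-541: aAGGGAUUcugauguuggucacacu
miR-329: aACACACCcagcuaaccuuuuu
miR-410: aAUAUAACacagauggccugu
miR-494: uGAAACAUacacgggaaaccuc
miR-134: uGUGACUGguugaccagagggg
The 47 matched members carried 46 different seeds, and the one shared seed, that of miR-376b* and miR-376c*, belonged to members too dim to test. No seed was compared for miR-376c, miR-487b and miR-485, which had no match. The 3 closest pairs among the tested members each differ in the seed. miR-300 and miR-381 matched at 19 of 22 bases, with the substitutions G4A, U21G and C22U (miR-300 base, position from the 5′ end, miR-381 base). miR-376b and miR-376a matched at 18 of 21 (A4G, C13A and U20G), and miR-543 and miR-495 at 18 of 22 (U6A, U7A, G9A and C10U). Whether each probe separates such near-identical miRNAs was not tested.

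The cluster was measurable in these cells through 28 of its 50 members, from 25 of the 35 hairpins. To be tested, a member needed a probe that stood well above background on each array of siGFP, of siLin28a or of both. All 28 tested members were called detected on all 4 arrays by Feature Extraction, the scanner's software. A probe well above background on all 4 arrays stood behind 27 of them, and 1, miR-496, passed through the siGFP arrays alone. Of the 22 members not tested, 5 were detected on all 4 arrays, 3 on some and 14 on none. Of the 15 hairpins with both arms on the array, 3 had both arms tested (miR-154, miR-409 and miR-411), 10 had 1 arm tested and 2 had none.

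With siLin28a, the tested members of the cluster lay lower than most other miRNAs of the same arrays. Their median log2 difference, siLin28a minus siGFP, was -0.25, with a range from -0.68 to 0.27, against a median of 0 over all 231 tested miRNAs. The mean was lower with siLin28a for 26 of 28 members, against 49.4% of all tested miRNAs. Both siLin28a arrays lay below both siGFP arrays for 19 members, 67.9% of the tested members against 30.7% of all tested miRNAs, and no member lay above on both, against 30.7% of all tested. No member passed on its own in limma, adjusted over all 231 miRNAs with a threshold of 0.05, where 0% of all tested miRNAs were called lower and 0.866% higher, the latter being let-7a and let-7f. An unadjusted limma p below 0.05 was found for 10 members that were lower, against 11.3% of all tested miRNAs, and for 0 that were higher, against 13.4%. The lowest adjusted p among the members was 0.159. These counts include miR-496, which passed through the siGFP arrays alone and lay at the lowest value allowed on both siLin28a arrays, so it could not be higher. Without miR-496 the median of the other 27 members was -0.24, with 25 means lower, 18 lower without overlap and 9 lower at an unadjusted limma p below 0.05. With only probes well above background on all 4 arrays, 18 of 27 members (66.7%) were lower without overlap, against 33.5% of all 209 miRNAs then tested. In bulk samples, fewer cells that express a miRNA and less of it per cell cannot be told apart.

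These differences are relative to the other miRNAs of an array, since each array was scaled to its own bright probes. With no scaling the median of all tested miRNAs moved to 0.19 and that of the members to -0.048, and with the scale taken over all probes they moved to -0.16 and -0.40. The distance between both medians was -0.24 and -0.25 in these settings, against -0.25 as reported. It was smaller with other choices, at -0.13 with the normexp background correction, where the members' median was -0.19. With only probes well above background on all arrays it was -0.19. It was -0.16 without siGFP replicate 2 and -0.16 without siLin28a replicate 1. The smallest distance was -0.083, with no filter on dim probes, where many of the 50 members lay at the lowest value allowed. With no scaling, 20 of 28 members had a lower mean, against 27.7% of all tested miRNAs. The members' summed total signal, before scaling, was 12506 and 13939 units with siGFP and 12065 and 14009 with siLin28a, and these overlapped. The sum over all miRNAs was 145480 and 154500 units with siGFP and higher with siLin28a, at 162499 and 180050. Dividing by that sum is another scaling, under which the members made up 8.58% and 9.0% with siGFP and 7.42% and 7.78% with siLin28a. miR-494 made up most of that share, and without it the members held 3.47% and 3.74% against 3.03% and 2.99%. Both shares were lower on both siLin28a arrays, where the sum over all miRNAs was higher and the members' own sum was not lower on both.

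The arrays of one group also differed. siGFP replicate 2 exceeded siGFP replicate 1 for 25 of the 28 members, by a median of 0.17 on the log2 scale. Over all 231 tested miRNAs it did so for 128, with a median of 0.027. siLin28a replicate 2 exceeded replicate 1 for 17 members, by a median of 0.037, against 128 of all tested miRNAs and a median of 0.035. The siGFP arrays thus differed more over the members than over all tested miRNAs. Without siGFP replicate 2 the members' median was -0.13 over 30 tested members, and without siLin28a replicate 1 it was -0.16 over 34. Without siGFP replicate 1 it was -0.36 over 31 members, and without siLin28a replicate 2 it was -0.29 over 28. In these fits a probe could pass through the lone array left in a group. Members beyond the 28 entered in that way, which favours a higher value in that group.

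**Figure D1:**
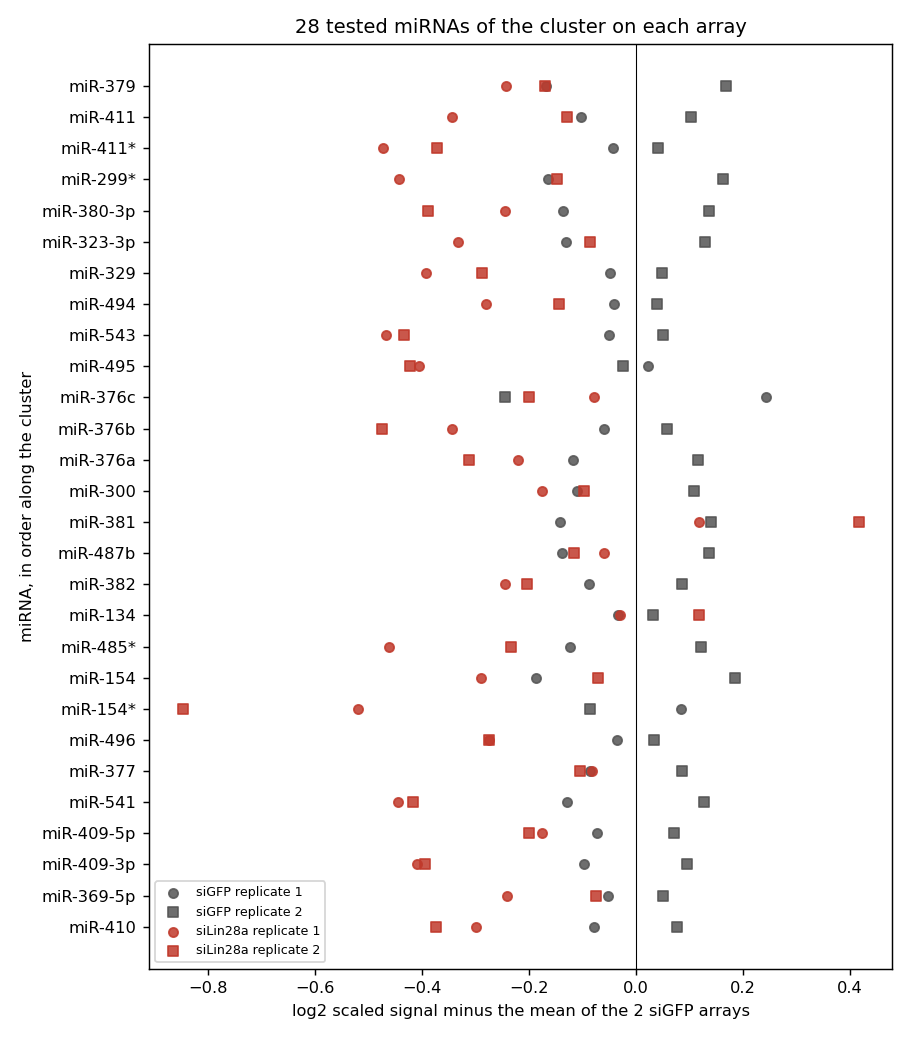
The x axis gives the log2 scaled signal of each array minus the mean of both siGFP arrays, and the y axis the 28 tested members in their order along the cluster. Grey points are siGFP and red points siLin28a arrays, circles replicate 1 and squares replicate 2. For 19 members both red points lie left of both grey points, and the grey squares lie right of the grey circles for 25.

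miR-154*, the 3p arm of the miR-154 hairpin, had the largest difference in the cluster. Its log2 scaled signal was -0.18 and -0.35 with siGFP and -0.79 and -1.12 with siLin28a, with the target at 110976686 to 110976705. Both siLin28a values lay below both siGFP values, and the siGFP signal was 1.61 times the siLin28a signal (log2 difference -0.68, SE 0.16, limma adjusted p = 0.159). It was also lower before any scaling, with total signals of 276 and 251 units against 205 and 177. The opposite arm, miR-154, had -2.22 and -1.85 with siGFP against -2.32 and -2.10 with siLin28a, where the groups overlapped (log2 difference -0.18, SE 0.19, limma adjusted p = 0.550). Both arms come from 1 hairpin, and their difference within an array needs no scaling. miR-154 minus miR-154* was -2.03 and -1.49 with siGFP and -1.53 and -0.99 with siLin28a, so the groups overlapped and each replicate 2 lay above its replicate 1. For miR-409 the same difference, 5p minus 3p, was -2.35 and -2.40 against -2.14 and -2.18, and for miR-411 it was 0.27 and 0.39 against 0.46 and 0.57. In both of these hairpins the siLin28a values lay above the siGFP values, by a mean of 0.21 for miR-409 and 0.19 for miR-411. For miR-154, where the groups overlapped, the mean was higher by 0.50. No test was made of these arm differences, and they were not set against those of other hairpins on the array.

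In the miR-409 hairpin, miR-409-3p had -0.36 and -0.16 with siGFP and -0.67 and -0.65 with siLin28a (log2 difference -0.40, SE 0.10, limma adjusted p = 0.159). miR-409-5p had -2.71 and -2.56 against -2.81 and -2.83 (log2 difference -0.19, SE 0.085, limma adjusted p = 0.266). Both arms were lower without overlap, the 3p arm by more than the 5p arm. With no scaling the difference of miR-409-5p was 0.016 and that of miR-409-3p -0.20. In the miR-411 hairpin, miR-411* had -1.67 and -1.58 against -2.09 and -1.99 (log2 difference -0.42, SE 0.12, limma adjusted p = 0.166). miR-411 had -1.39 and -1.19 against -1.63 and -1.42 (log2 difference -0.24, SE 0.15, limma adjusted p = 0.370). Both arms of this hairpin were again lower without overlap.

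The miR-409 hairpin is also the one in which the 4 bases GGAG, which LIN28 binds in the loop of let-7 precursors, lie between the arms. Its RefSeq sequence is shown to place them, with that GGAG in capitals.
miR-409 hairpin: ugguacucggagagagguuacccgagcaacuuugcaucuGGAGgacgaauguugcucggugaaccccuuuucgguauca
The letters GGAG were searched on the given strand of each hairpin. They lay between the arms of 1 of 28 member hairpins with both arms in the RefSeq table, against 52 of 644 (8.07%) of all mouse hairpins there. Anywhere in the hairpin they were found in 13 of 33 member hairpins (39.4%) against 44.5% of all 1005. This is a match of letters, not a measured binding site.

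miR-543 and miR-495, close in sequence, had similar differences. miR-543 had -0.32 and -0.22 with siGFP and -0.74 and -0.70 with siLin28a (log2 difference -0.45, SE 0.083, limma adjusted p = 0.159). miR-495, known to target the neurotrophin Bdnf, had -0.46 and -0.51 against -0.89 and -0.91 (log2 difference -0.41, SE 0.080, limma adjusted p = 0.159). For both miRNAs the replicates of a group lay closer to each other than to the other group, and the values were lower without overlap. Neither passed the adjusted threshold.

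The miR-376 miRNAs are known as substrates of A-to-I RNA editing, which can alter their seed. miR-376b had 1.14 and 1.26 with siGFP and 0.86 and 0.73 with siLin28a (log2 difference -0.41, SE 0.083, limma adjusted p = 0.159). miR-376a had 0.68 and 0.91 against 0.58 and 0.48 (log2 difference -0.27, SE 0.11, limma adjusted p = 0.228). Both were lower without overlap. miR-376c had -2.43 and -2.91 against -2.75 and -2.87, where the siGFP arrays enclosed the siLin28a arrays (log2 difference -0.14, SE 0.20, limma adjusted p = 0.669), and without siGFP replicate 1 its difference was 0.11.

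miR-300 and miR-381, which share most of their sequence, differed in direction. miR-381, which acts in dendrite growth in neurons, had the largest difference upward in the cluster, with -1.49 and -1.21 with siGFP and -1.23 and -0.94 with siLin28a (log2 difference 0.27, SE 0.18, limma adjusted p = 0.370). The groups overlapped, and each siLin28a array exceeded the siGFP array of the same replicate number. miR-381 stayed above 0 in all 18 alternatives of the processing, from 0.043 to 0.47, though some of these cannot change a difference. Its value rests on 1 of 2 probes. The other probe was too dim to be kept and gave 0.011, held near the lowest value allowed. Alternatives that use the kept probe alone are therefore no second measurement. miR-300 had 0.56 and 0.78 against 0.49 and 0.57, with overlap (log2 difference -0.14, SE 0.10, limma adjusted p = 0.410), and its difference was 0.067 with no scaling.

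miR-134, known to restrain dendritic spine growth and to act in the differentiation of embryonic stem cells, was the other member with a higher mean. It had -2.48 and -2.42 with siGFP and -2.48 and -2.33 with siLin28a, with overlap (log2 difference 0.045, SE 0.11, limma adjusted p = 0.797). Its 4 kept probes disagreed. From the dimmest to the brightest they gave log2 differences of 0.21, 0.14, 0.017 and -0.19, and miR-134 was the only one of 24 members with several kept probes whose probes differed in sign. The dimmest of these probes was well above background on 1 of 2 siGFP arrays and on both siLin28a arrays, so it was kept through siLin28a alone. Without it the difference of miR-134 was -0.0092, with only probes well above background on all arrays. In 8 of 18 alternatives, among them the scaling over all probes, the miRNA's difference fell below 0.

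miR-494 had the highest scaled signal of the cluster. It had 4.40 and 4.48 with siGFP and 4.16 and 4.30 with siLin28a, lower without overlap (log2 difference -0.21, SE 0.083, limma adjusted p = 0.211). Its total signals before scaling were 7474 and 8177 units against 7166 and 8643, and these overlapped. Signals of different probes depend on the probe, so they give no order of abundance.

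At the distal end, miR-410 had 0.25 and 0.41 with siGFP and 0.030 and -0.045 with siLin28a (log2 difference -0.34, SE 0.088, limma adjusted p = 0.159). miR-541, just upstream of the miR-409 hairpin, had -0.80 and -0.55 against -1.12 and -1.09 (log2 difference -0.43, SE 0.13, limma adjusted p = 0.169). Both were lower without overlap. miR-377, a little upstream, had -0.14 and 0.033 against -0.13 and -0.16, where the groups overlapped (log2 difference -0.093, SE 0.091, limma adjusted p = 0.516), and its difference was 0.11 with no scaling and 0.011 without siGFP replicate 2.

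At the proximal end, miR-379, the first hairpin of the cluster, had -0.47 and -0.14 with siGFP and -0.55 and -0.48 with siLin28a (log2 difference -0.21, SE 0.15, limma adjusted p = 0.389). Its siLin28a values lay below both siGFP values, but the nearest arrays of the groups all but coincided. miR-329, also known from dendrite growth, had -0.96 and -0.86 against -1.30 and -1.20 (log2 difference -0.34, SE 0.10, limma adjusted p = 0.169) and was lower without overlap. Among the remaining hairpins, miR-380-3p (-0.32) and miR-382 (-0.22) were lower without overlap, and miR-299* (-0.29), miR-323-3p (-0.21) and miR-487b (-0.088) overlapped, with limma adjusted p values from 0.283 to 0.732. The difference of miR-487b was 0.11 with no scaling and 0.067 without siGFP replicate 2.

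**Figure D2:**
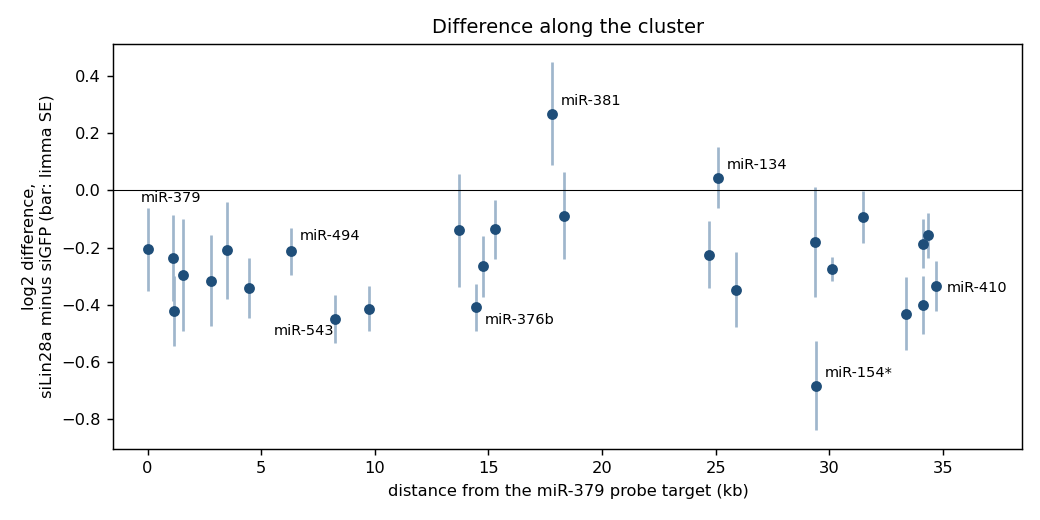
The x axis gives the distance of each tested member's probe target from that of miR-379 in kb, and the y axis its log2 difference, siLin28a minus siGFP, with the limma SE as a bar (n = 2 arrays per group). Points below 0 occur from the first to the last hairpin, and the 2 points above 0 are miR-381 (0.27) and miR-134 (0.045).

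Values below 0 occurred along the whole cluster. In RefSeq's annotation of build GRCm38.p6, 9 of the member hairpins, from miR-453 to miR-410, lie inside the gene of the long non-coding RNA Mirg and the others upstream of its annotated start. The 9 tested members inside Mirg had a median difference of -0.27, with all 9 lower, and without miR-496, whose value is set by the floor, the other 8 had a median of -0.26. The 19 upstream had a median of -0.24, with 17 lower. All matched member hairpins lie on the plus strand. By arm, the 19 tested 3p members, miR-496 among them, had a median of -0.32, with 18 lower, and the 9 tested 5p members a median of -0.21, with 8 lower. These are descriptions of members that share precursors, and no test was made between the subgroups.

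Some dim members (3 of 28) were limited by the floor, the lowest value allowed, which was set at -3.40 on the log2 scale from the dimmest signals well above background. miR-496 had -3.16 and -3.09 with siGFP and was at the floor on both siLin28a arrays, and its kept probe was well above background on 1 of these arrays. Its log2 difference of -0.27 (SE 0.041, limma adjusted p = 0.159) is therefore set by the floor. A pass through siGFP alone also favours a lower value with siLin28a. Because of the floor the spread of the siLin28a values of miR-496 is 0, so its SE does not measure precision. miR-485*, of the hairpin whose other arm was not detected, had -3.06 and -2.82 against -3.40 and -3.17 (log2 difference -0.35, SE 0.13, limma adjusted p = 0.210). These values rest on 1 of its 4 probes, and the other probes read only -4.37 to 2.56 units before scaling. miR-369-5p had -3.21 and -3.11 against -3.40 and -3.23 (log2 difference -0.16, SE 0.080, limma adjusted p = 0.283). Both were lower without overlap, with siLin28a replicate 1 at the floor.

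The members that were detected on all 4 arrays but too dim to test had no common direction in their total signals, which are not scaled between arrays. The siLin28a arrays were brighter as a whole, with 75th percentiles of 248 and 265 units against 226 and 220 with siGFP. The directions of these totals are therefore not comparable with the scaled differences of the tested members. miR-376b* had 20.0 and 22.9 units with siGFP and 17.4 and 20.5 with siLin28a, and miR-300* 17.1 and 22.4 against 20.3 and 22.1. miR-382* had 23.6 and 21.7 against 23.4 and 26.5, and miR-376a* 7.09 and 9.25 against 7.74 and 10.9. These groups overlapped in each case. miR-369-3p had 31.1 and 26 against 25.1 and 23.4, and was the one of these 5 that was lower on both siLin28a arrays. miR-299, miR-539 and miR-667 were detected on some arrays, with signals of at most 14.4 units. Not detected on any array were miR-323-5p, miR-376c*, miR-380-5p, miR-412, miR-453, miR-485, miR-544, miR-654-3p, miR-654-5p, miR-666-3p, miR-666-5p, miR-668, miR-679 and miR-758, whose total signals were at most 4.31 units, which bounds them at this signal and does not show that they are absent.

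The other miRNAs of the Dlk1-Dio3 region, closer to Meg3 and Rtl1, were taken from a list by name. Of 23 on the array, 15 were tested, with a median log2 difference of -0.29, and 11 of them were lower without overlap and 0 higher, against 30.7% of all tested miRNAs in either direction. None passed limma after adjustment, and 4 that were lower had an unadjusted limma p below 0.05, against 11.3% of all tested miRNAs. miR-127, which lies antisense to Rtl1 and targets its mRNA, had 0.76 and 0.94 with siGFP and 0.46 and 0.54 with siLin28a (log2 difference -0.35, SE 0.091, limma adjusted p = 0.159). miR-434-3p had a difference of -0.38 (SE 0.11, limma adjusted p = 0.169) and miR-136 of -0.059 (SE 0.17, limma adjusted p = 0.829). The members of the distal cluster and these proximal miRNAs thus covered similar values, and no test was made of a difference between them.

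**Figure D3:**
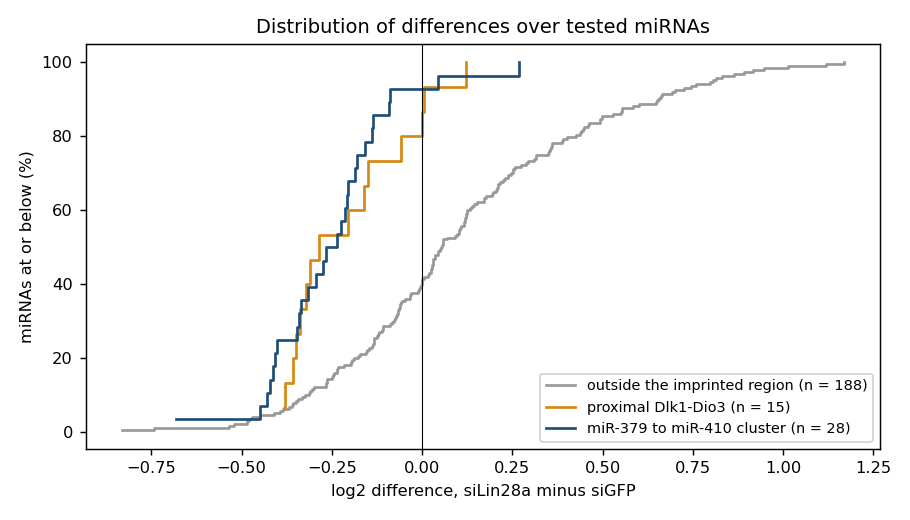
The x axis gives the log2 difference, siLin28a minus siGFP, and the y axis the percentage of tested miRNAs at or below it, as steps for the 28 cluster members, the 15 proximal Dlk1-Dio3 miRNAs and the remaining tested miRNAs. The blue and orange steps run close together and lie left of the grey one over most of the range, with medians of -0.25 and -0.29.

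**Figure D4:**
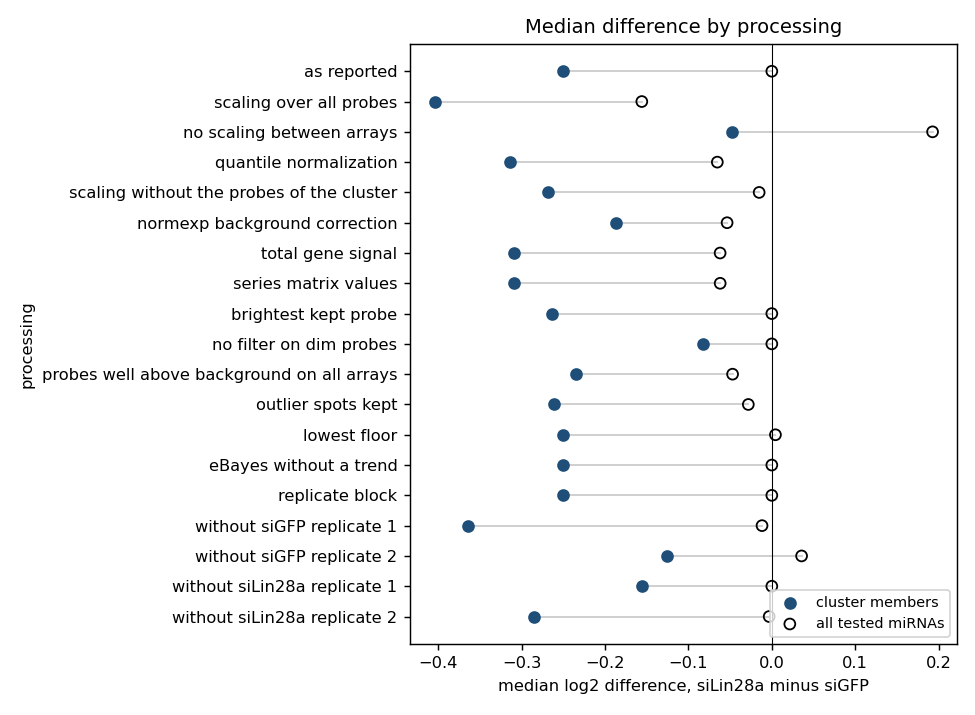
The x axis gives the median log2 difference, siLin28a minus siGFP, of the tested cluster members (filled) and of all tested miRNAs (open), and the y axis the processing, first as reported and then under 18 alternatives. The filled point lies left of the open one in each, from -0.048 with no scaling to -0.40 with the scaling over all probes for the members.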

How the data were processed

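Each array was deposited as scanner output with linear intensity values, made by the authors with Agilent Feature Extraction, version 9.5.1.1 per the file headers and 9.5.3.1 per the submitters' processing notes. Per the file headers, the processed intensity is the spot signal minus a background surface fitted within the array. The total signal is the software's 1 summary value per miRNA name. The series-wide table deposited by the authors gives this total as intensity, with no scaling between arrays. Coordinates are those of mm9, per the file headers. Control spots and outlier spots (3.21% to 4.32%) were left out, spots were averaged per probe, and the scale of an array was its 75th percentile over the 425 probes well above background (at least 50% of spots) on all 4 arrays. Values were floored at 0.0948 and taken to log2. Probes that passed this background call on each array of 1 group or more were kept (477, of 231 miRNAs) and averaged per miRNA.

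Groups come from the sample titles and were tested two-sided (limma 3.58.1, R 4.3.3, eBayes with a trend, 2 residual and 1.64 prior degrees of freedom), and p-values of the 231 miRNAs were adjusted by Benjamini and Hochberg's method. The fit was tested on simulated data with independent noise and planted differences larger than that of any member, so differences of the members' size were not covered. Members, lists and tests were chosen with earlier results of these data known, so no pattern here is independent support. All 28 tested members are named. Described in full are those that the naming rule picks by level, by difference without overlap, by arm pair, by a higher mean or by a pass through 1 group, plus miR-379, miR-376c and miR-369-5p, chosen after their values were seen, for place, family or floor. Alternatives changed scaling, background, summary, filter, floor, outliers, variance model, block and arrays.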

Additional observations from a re-analysis of the deposited data

How the results depend on the processing

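The eBayes fit without a trend and the fit blocked by replicate number cannot change a difference. The series matrix values repeat the total gene signal. With these included, the members' median difference stayed below 0 under all 18 alternatives. It was -0.40 with the scaling over all probes, -0.048 with no scaling between arrays, where 10 members were lower and 3 higher without overlap (10.8% and 48.5% of all tested miRNAs), and -0.083 with no filter on dim probes (50 members, many at the floor). With 1 array left out it ranged from -0.36 to -0.13. Against a count of 2 miRNAs called over the whole array (2 higher, 0 lower), the count was 0 with the scaling over all probes, 0 under normexp, 0 with probes well above background on all arrays, 6 with the total gene signal and 6 with the series matrix values, 8 with the lowest floor, and 48 with no filter (40 higher, 8 lower), and it ranged from 0 to 13 with 1 array left out, where the lone array of a group is assumed to vary like the others. With no filter 4 of 50 members passed, 8% against 8.32% of all 577 miRNAs, all of them lower: miR-154* (-0.68) and 3 at the floor on both siLin28a arrays, miR-496 (-0.14), miR-369-3p (-0.035) and miR-376b* (-0.042). The fit with no filter had infinite prior degrees of freedom, so the spread of a miRNA's own values did not enter its p. The difference of miR-154* was the same as with the filter. No member passed in the other alternatives. The difference of miR-134 turned to -0.13 with the scaling over all probes, -0.085 with quantile normalization, -0.12 with normexp, -0.068 with the total gene signal, -0.068 with the series matrix values, -0.19 with the brightest kept probe, -0.0092 with probes well above background on all arrays and -0.029 without siLin28a replicate 2 (-0.029 to 0.12 over the 4 fits with 1 array left out). With no scaling those of miR-154 (0.022), miR-300 (0.067), miR-376c (0.064), miR-377 (0.11), miR-409-5p (0.016) and miR-487b (0.11) turned above 0. With 1 array left out the range was -0.36 to 0.024 for miR-154, -0.18 to 0.011 for miR-377 and -0.22 to 0.067 for miR-487b, each highest without siGFP replicate 2, and -0.37 to 0.11 for miR-376c, highest without siGFP replicate 1. The cause of these changes was not tested. Under the fit blocked by replicate number, the median was -0.25 by design, the count of miRNAs called was 2, and no member passed (lowest limma adjusted p = 0.0555). The labels do not say that a number marks a shared batch, though same-numbered arrays deviated together over all tested miRNAs (r = 0.71 across miRNAs, which are not independent replicates). Dim members are held near the floor, which understates their differences and can also understate their spread.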
